A study of Mus musculus with 2 samples.

Results

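The beta-defensin genes were taken as every gene whose symbol begins with Defb followed by a number, which gave 42 of the 32285 genes listed for both libraries. All 42 were matched by identifier to the mouse annotation of GENCODE M21 on the GRCm38 (mm10) genome. Single-cell RNA sequencing had been used on prostate tissue of wild-type male C57BL6 mice, with 1 ventral library (from the lobes of that name) and 1 proximal library (from the proximal part and the region around the urethra). Version 2 of the 3′ capture kit of 10x Genomics served for the ventral and version 3 for the proximal sample, which means that kit and region cannot be told apart. The age of the mice and whether animals were pooled are not given in the sources used here. With 1 library per region there is no replicate, no p-value and no test between regions. Intervals in brackets are exact 95% intervals that cover counting error only. UMI (unique molecular identifier) counts mark captured RNA molecules, and levels are given as UMIs per 1000000 UMIs of the same cells, abbreviated CPM.

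Beta-defensins are small secreted cationic peptides with a core of cysteines that pair into disulfide bridges. They damage microbial membranes, and several act on the chemokine receptors Ccr6 and Ccr2. In rodents many of the genes sit in tandem arrays and are best known from the epididymis and other parts of the male tract, where the peptides coat sperm. Defb1 is the constitutive epithelial member, and Defb50 has also been named a prostate beta-defensin.

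The coding sequences of the 5 members on which the results turn are shown because the cysteine core differs among them. They are from GENCODE M21 transcripts, 5′ to 3′, with cysteine codons (TGT or TGC) in capitals.
Defb50: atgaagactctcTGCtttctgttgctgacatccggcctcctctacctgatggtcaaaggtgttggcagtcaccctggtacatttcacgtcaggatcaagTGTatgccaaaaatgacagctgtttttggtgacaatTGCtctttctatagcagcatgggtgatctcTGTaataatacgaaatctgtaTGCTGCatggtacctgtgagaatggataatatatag
Defb1: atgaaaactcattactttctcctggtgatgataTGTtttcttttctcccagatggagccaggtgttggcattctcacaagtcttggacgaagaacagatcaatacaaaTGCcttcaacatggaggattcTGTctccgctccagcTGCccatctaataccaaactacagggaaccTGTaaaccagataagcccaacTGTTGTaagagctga
Defb10: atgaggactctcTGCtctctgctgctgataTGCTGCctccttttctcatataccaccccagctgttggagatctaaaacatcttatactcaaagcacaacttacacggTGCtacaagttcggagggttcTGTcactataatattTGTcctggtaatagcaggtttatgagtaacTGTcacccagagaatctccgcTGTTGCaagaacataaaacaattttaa
Defb2: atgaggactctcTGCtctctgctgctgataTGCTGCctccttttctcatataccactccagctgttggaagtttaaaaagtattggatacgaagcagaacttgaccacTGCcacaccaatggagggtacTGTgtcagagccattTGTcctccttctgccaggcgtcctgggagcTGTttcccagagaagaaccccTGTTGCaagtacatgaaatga
Defb42: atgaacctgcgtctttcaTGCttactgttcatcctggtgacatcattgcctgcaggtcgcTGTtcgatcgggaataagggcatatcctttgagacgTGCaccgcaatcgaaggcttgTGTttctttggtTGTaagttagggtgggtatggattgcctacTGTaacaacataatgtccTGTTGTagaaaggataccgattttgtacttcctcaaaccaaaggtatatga

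The coding sequences of the 42 members ran from 57 to 186 codons. In 37 of them a script found the family's pattern of 6 cysteine codons, which in Defb1, Defb2 and Defb10 fell at codons 37, 44, 49, 59, 66 and 67 counted from the start codon. In Defb42 the pattern fell at codons 33, 40, 44, 54, 60 and 61. Defb50 was the 1 member whose sequence held the pattern without its second cysteine codon, at codons 34, 46, 56, 63 and 64. The other members without the full pattern were Defb8, Defb22, Defb33 and Defb46. The longest run of identical bases shared with a transcript of another member was 12 in Defb50, 15 in Defb1 and 13 in Defb42. Their reads, of 91 bases, were therefore distinct from those of the other members' annotated transcripts. Defb2 shared a run of 102 bases with Defb11 and one of 83 bases with Defb10, and Defb9 shared 75 bases with Defb10. The run of 102 bases can hold a whole read, while those of 83 and 75 bases are shorter than 1 read. How the authors' counting treated reads in such runs is not given here, so the separate values of these 4 genes are uncertain.

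The ventral library held 1988 kept cells with a median of 25758.5 UMIs, and the proximal library 3705 kept cells with a median of 15260 UMIs. No cell barcode occurred in both. A doublet caller marked 0.193% of cells and, at so low a rate, has not worked. Doublets are therefore likely to remain in every group. Clusters were named from marker lists, with the Defb genes kept out of the clustering. Among cells named distal luminal-like, the secretory cells of the lobes, clusters were called Msmb-rich, Sbp-rich or Tgm4-rich after the secretory product that made up at least 1%, 10% or 0.5% of their UMIs. These limits were set after the clusters had been seen. Ventral distal luminal-like cells comprised 110 Msmb-rich cells and 1596 Sbp-rich cells in 8 clusters. Proximal ones comprised 161 Msmb-rich, 162 Sbp-rich and 385 Tgm4-rich cells. Macrophage-like cells, 30 ventral and 79 proximal, served as the background, since they should hold no epithelial secretory RNA of their own. Seminal vesicle markers were at 0 UMIs in the ventral library and came to 403326 UMIs in the proximal one, where 26 cells were named seminal vesicle-like. Of 7 markers of the epididymis or vas deferens, 5 had UMIs in the proximal library, 119 in all, and Lcn5 and Cst11 were at 0.

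Most members had few UMIs or none, and Defb50 accounted for nearly all of the UMIs of the family. In the ventral library 19 of the 42 members had at least 1 UMI in kept cells, against 63.3% of all listed genes, and in the proximal library 30 had, against 78.7%. There were 18 members with a UMI in both libraries, against 62.5% of all genes, Defb26 with 1 UMI in the ventral library alone, against 0.774%, and 12 with UMIs in the proximal library alone, against 16.2%. Defb50 held 97.7% of the 473887 member UMIs of the ventral library and 93.3% of the 1282487 of the proximal library. Defb1 held 2.10% and 6.50%. At least 10 UMIs were reached by 6 members in the ventral library, against 45.8% of all genes, namely Defb50, Defb1, Defb2, Defb10, Defb28 and Defb29. All 6 were among the 18 members that reached 10 UMIs in the proximal library, against 62.9% of all genes.

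A gap of over 500000 bases between neighbouring members was taken to start a new place. By that rule the members lie in 6 places in the genome, and their UMIs were concentrated in 1 of them. The interval chr8:21776599-21948850, 172 kb long, holds 9 members, among them Defb1 (chr8:21776599-21795185), Defb50 (chr8:21823539-21831296), Defb2 (chr8:21839926-21843482) and Defb10 (chr8:21858901-21862011), all 4 on the plus strand. Ventral member UMIs there numbered 473710 and proximal ones 1281446. A second array on the same chromosome, chr8:18974940-19497775, holds 14 members and gave 7 and 44 UMIs. The array of 11 genes on chromosome 2, chr2:152459055-152623053, gave 162 and 179 UMIs. The 5 genes at chr14:62977524-63058149 gave 8 and 816 UMIs. Defb33, by itself between the chromosome 8 arrays, and the pair Defb18 and Defb41 on chromosome 1 gave 1 proximal UMI each.

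**Figure D1:**
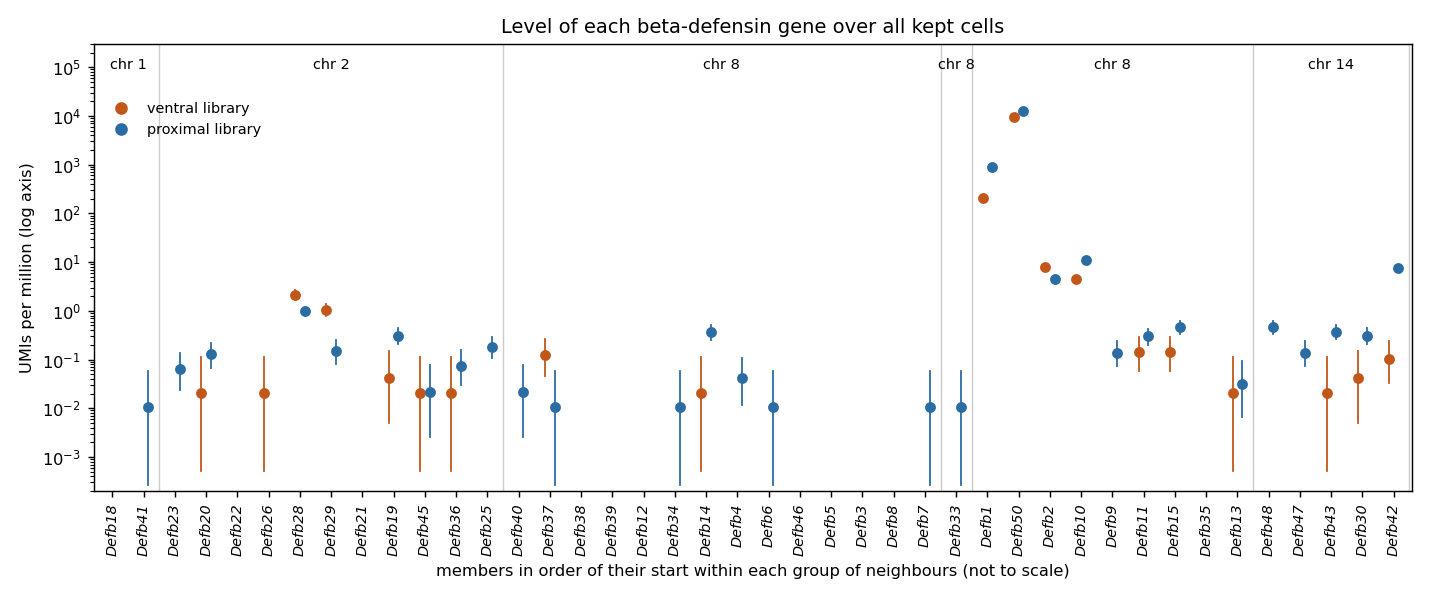
Level in CPM over all kept cells (log axis) for each of the 42 members, ordered by start within each group of neighbouring genes, in the ventral (orange) and proximal (blue) libraries, with bars for the exact 95% Poisson interval. Members with no point in a colour had 0 UMIs in that library, and the highest points belong to Defb50 at 9531 and 12749 CPM.

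Over all kept cells Defb50 stood at 9531 CPM in the ventral library (9504–9559) and 12749 CPM in the proximal library (12726–12772), a ratio of proximal to ventral of 1.34 (1.33–1.34). When Sbp and Spink1, the main ventral secretory transcripts, were left out of the totals, that ratio turned to 0.794, so no order of the libraries is read from it. Defb1 stood at 204 CPM (200.4–208) in the ventral and 888 CPM (882–894) in the proximal library. Its ratio was 4.35 (4.26–4.44), and 2.58 without Sbp and Spink1 in the totals. Defb10 gave 4.47 and 11.2 CPM and Defb2 8.01 and 4.48 CPM, ratios of 2.50 (2.16–2.91) and 0.559 (0.486–0.643), and 1.49 and 0.332 under that other scaling. Defb42 had 5 ventral and 695 proximal UMIs, a ratio of 72.0 (30.7–222). Defb28 gave 2.16 and 0.980 CPM, and Defb29 gave 1.05 and 0.149 CPM.

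Of all genes with at least 10 UMIs in 1 library, 39.3% were over 4-fold higher in the proximal and 0.982% over 4-fold lower, and 28.0% and 2.35% without Sbp and Spink1 in the totals. Of the 18 members with as many UMIs, 12 had them in the proximal library alone, so nothing is read from how many of the 18 were higher there. Defb14, Defb43 and Defb20, with 1 ventral UMI each, had ratios of 17.6 (2.95–716), 18.1 (3.05–736) and 6.21 (0.919–266), and the last interval includes 1. Defb19 and Defb30, with 2 ventral UMIs each, both had a ratio of 7.51 (1.90–64.9). For Defb19, 23 of the 29 proximal UMIs lay in 1 cell, so its ratio rests largely on that cell. Defb9, Defb25, Defb47 and Defb48 had no ventral UMI. Their proximal levels were 2.24, 2.93, 2.24 and 7.59 times a ventral floor of 3 counts. The exact lower limits of their proximal to ventral ratios were 1.58, 2.14, 1.58 and 5.92, in the same order. Defb29 was lower in the proximal library, at 0.142 (0.0727–0.261). Leaving Sbp and Spink1 out of the totals lowers each of these ratios by the same factor as that of Defb50. The proximal library was the larger and held groups of cells that were not named in the ventral one, so these ratios compare whole libraries and not a cell type in each region.

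The Msmb-rich luminal cells carried the great part of the Defb50 RNA in both dissections. In the ventral library their level was 121854 CPM (121452–122257), and these 110 of 1988 cells held 76.1% of the gene's UMIs. The proximal ones stood at 99488 CPM (99302–99675), and 161 of 3705 cells held 91.3%. Every Msmb-rich cell had Defb50 UMIs, with a median of 2995.5 per ventral and 6465 per proximal cell. Within single cells the gene took a median of 13.3% of all UMIs in the ventral Msmb-rich cells, from 0.116% to 24.3%. In the proximal ones the median was 10.3%, from 0.209% to 17.3%. The summed level therefore rested on nearly the whole group and not on a few cells, and the top cell held 2.27% and 3.16% of the group's Defb50 UMIs.

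Defb50 UMIs were also found in the macrophage-like cells. Ventral macrophage-like cells gave 323 CPM of Defb50 (244–420), from 56 UMIs in 21 of 30 cells. Proximal macrophage-like cells gave 1147 CPM (1081–1216), of which 949 of 1129 UMIs came from 1 cell. That cell held 2.04% Defb50 and 0.323% Msmb among its UMIs, and the other 78 cells stood at 192 CPM (165–222), with UMIs in 67 of them. Msmb-rich cells were 377-fold (290–499) above macrophage-like cells in the ventral library and 86.7-fold (81.8–92.0) above them in the proximal library. The second value was 518-fold without that 1 cell, and the first was 34.4-fold when T or NK-like cells were pooled with macrophage-like cells as background.

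**Figure D2:**
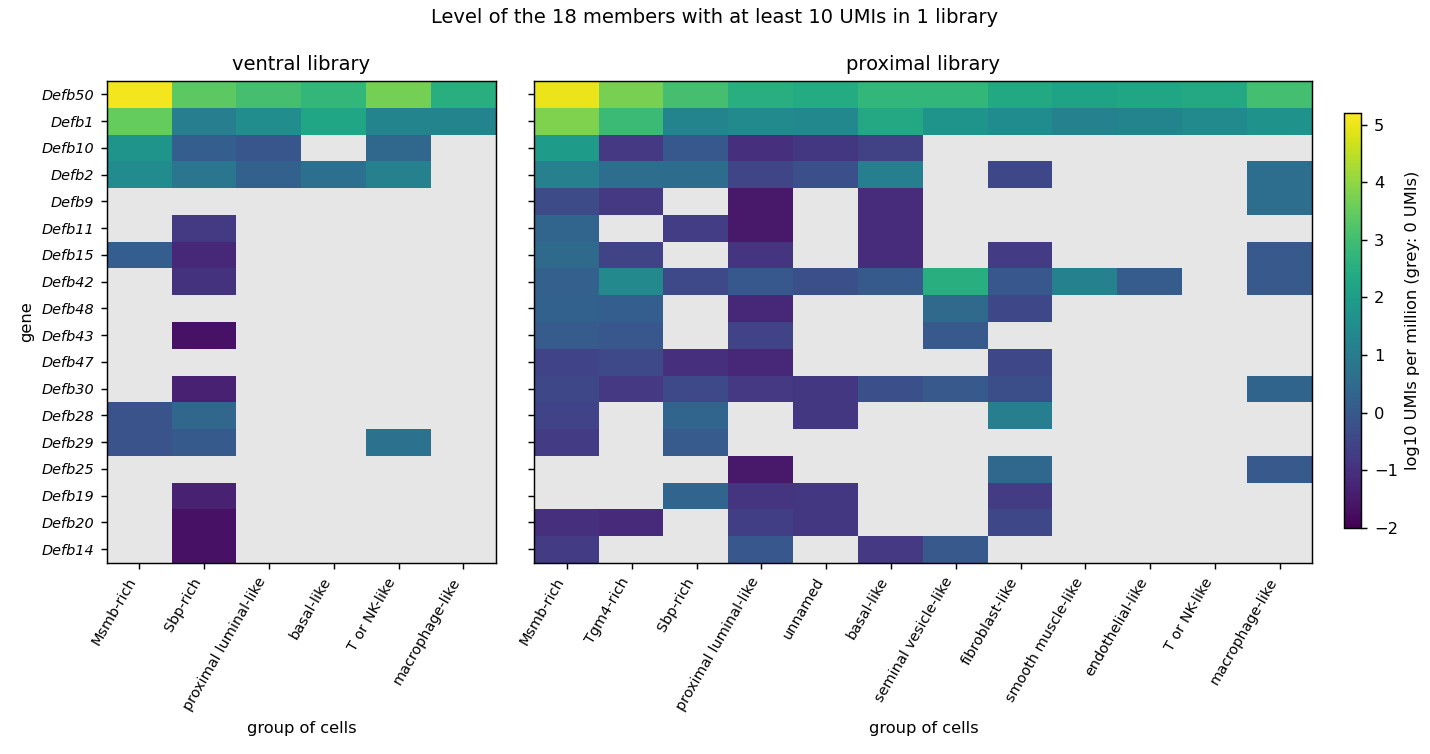
Colour gives log10 CPM for the 18 members with at least 10 UMIs in 1 library (rows) in each group of cells (columns) of the ventral (left) and proximal (right) libraries, with 0 UMIs in grey. Defb50 and Defb1 are brightest in Msmb-rich cells, Defb42 in seminal vesicle-like cells and Defb28, in the proximal library, in fibroblast-like cells.

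Sbp-rich cells held Defb50 at a far lower level. The ventral Sbp-rich cells gave 2472 CPM (2457–2487), 7.64-fold (5.89–10.1) above macrophage-like cells but 0.698-fold the level of all immune cells pooled. Of the 2038 Defb50 UMIs in that pool, 1982 came from 27 T or NK-like cells, 16 of which held over 5% Sbp and Spink1. The 8 clusters of ventral Sbp-rich cells ranged from 1682 to 2974 CPM. Their median cell held 0.115% of its UMIs as Defb50, beside 0.0267% in macrophage-like cells. Proximal Sbp-rich cells gave 1173 CPM (1152–1194), which overlapped the 1147 CPM of all macrophage-like cells. Against the macrophage-like cells without the 1 rich cell, at 192 CPM, that level was higher.

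Tgm4-rich cells, which made Tgm4, a transglutaminase of the seminal plasma, were found in the proximal library and stood between. Their Defb50 level was 5224 CPM (5185–5264), 4.55-fold (4.29–4.83) above macrophage-like cells and 27.2-fold without the 1 rich macrophage-like cell. The 3 clusters in the group differed, at 2764, 12916 and 5093 CPM for clusters 5, 16 and 17. In cluster 17, of 53 cells, 1 cell held 58.1% of the Defb50 UMIs, and without it the level was 2366 CPM, below that of cluster 5. The median cell held 0.115% and the upper quartile 0.704%, so the group was uneven from cell to cell.

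Thinning each cell to 1000 UMIs took differences in depth out of the share of cells with a Defb50 UMI. The thinned share was 100% in Msmb-rich cells of both libraries. It was 66.3% and 48.8% in ventral and proximal Sbp-rich cells and 59.2% in Tgm4-rich cells. Among macrophage-like cells it was 20.0% (7.71–38.6) of ventral and 20.5% (12.2–31.2) of proximal ones. Before thinning, 70.0% and 86.1% of macrophage-like cells had a Defb50 UMI at median depths of 3751 and 11922 UMIs, against 100% of Msmb-rich cells at 25447 and 66390. Cells with fewer than 1000 UMIs were left out, which kept 1986 ventral and 3687 proximal cells.

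Basal-like, proximal luminal-like and stromal cells lay far nearer to the macrophage level for Defb50 than Msmb-rich cells did. Ventral basal-like cells gave 579 CPM (525–637), 1.79-fold (1.35–2.41) above macrophage-like cells but 0.163-fold the level of all immune cells pooled. Nearly all Defb50 UMIs of that ventral pool came from T or NK-like cells. Proximal basal-like cells gave 574 CPM (561–587). Thinned shares in basal-like cells were 29.3% and 32.0%, whose intervals, 21.9–37.6% and 29.0–35.1%, overlapped those of macrophage-like cells. Proximal luminal-like cells gave 1190 CPM in the ventral and 353 CPM in the proximal library, and the former was 0.336-fold the level of all immune cells pooled. In the ventral ones 26 of 84 cells held over 5% Sbp and Spink1, transcripts of another cell type, and without cells over that limit the ratio to macrophage-like cells was 2.59 in place of 3.68. The proximal library also gave 244 CPM in fibroblast-like cells, 187 in endothelial-like cells, 149 in 6 smooth muscle-like cells, 568 in seminal vesicle-like cells (374 without the cell that held 36.5% of their UMIs) and 264 in an unnamed cluster of 395 cells led by haemoglobin genes. These proximal levels lay below the 1147 CPM of all macrophage-like cells, while without the 1 rich cell the basal-like level, for one, was 2.99-fold the background.

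The 27 ventral T or NK-like cells did not follow the macrophage-like cells and gave 4929 CPM of Defb50 (4714–5151), 15.2-fold the macrophage level. In 16 of the 27, over 5% of UMIs were Sbp and Spink1, and 1 cell held 35.1% of the group's Defb50 UMIs. Without cells over that limit the ratio to macrophage-like cells was 0.647. In the proximal library the 27 T or NK-like cells gave 219 CPM (161–291).

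**Figure D3:**
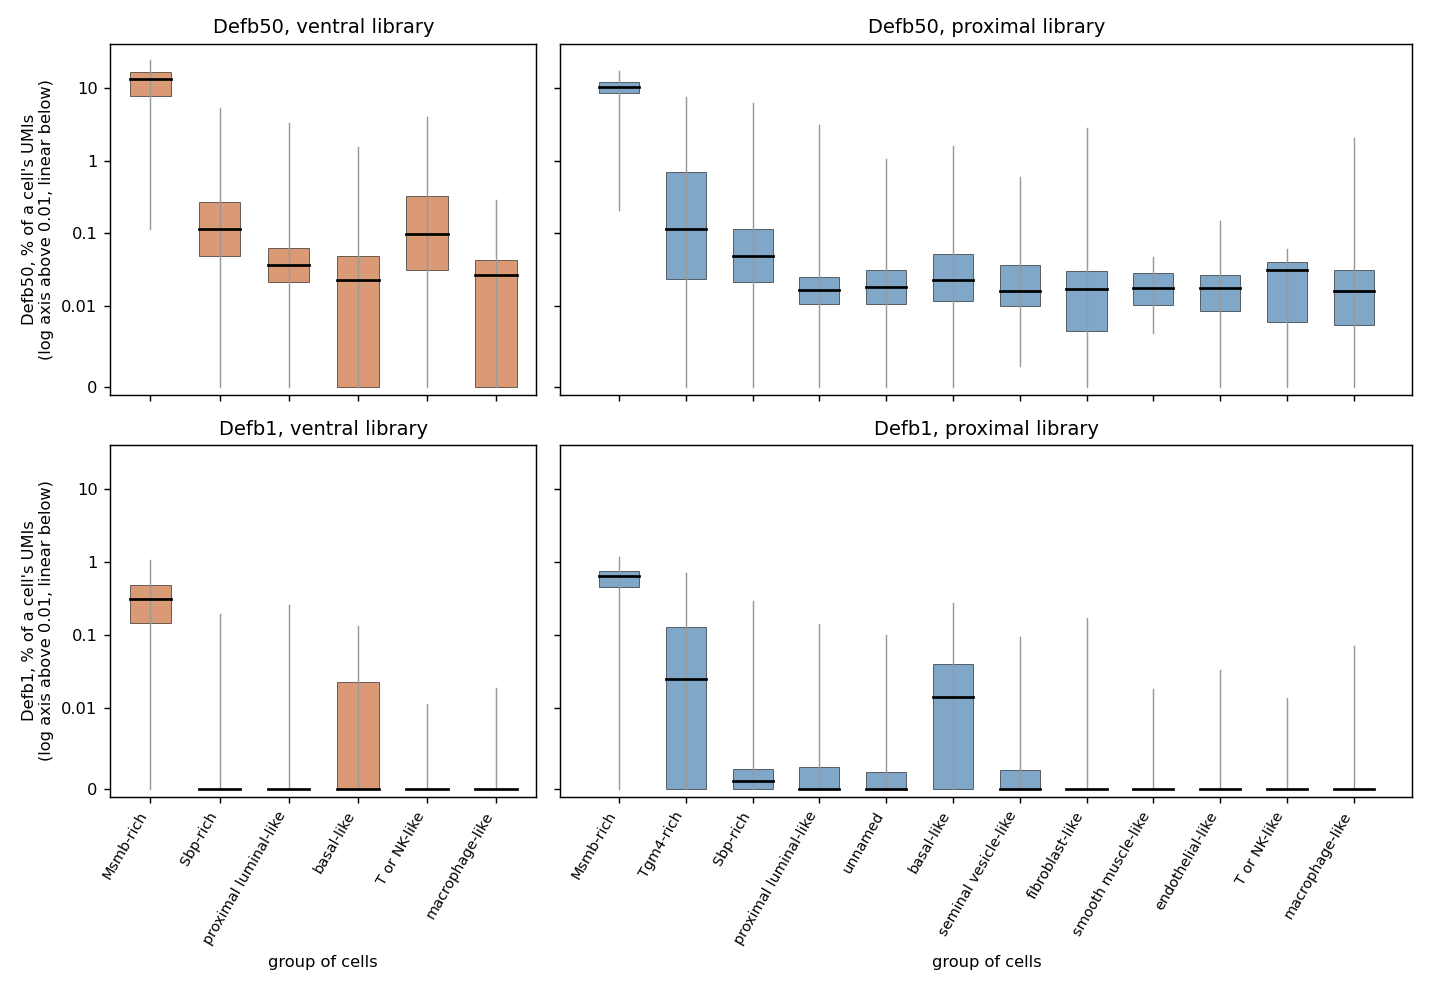
Percent of each cell's UMIs from Defb50 (top) and Defb1 (bottom) by group of cells in the ventral (left) and proximal (right) libraries, on an axis that is logarithmic above 0.01 and linear below. Boxes span the quartiles, black lines mark medians and grey lines run from the lowest to the highest cell, with Msmb-rich medians at 13.3% and 10.3% for Defb50.

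The ratio of Defb50 to a second secreted product differed among the groups. Msmb-rich cells had 3.50 Defb50 UMIs per Msmb UMI among ventral cells and 1.68 among proximal ones. Ventral Sbp-rich cells had 36.9, proximal Sbp-rich cells 12.8 and Tgm4-rich cells 22.5, all above the ratio of the Msmb-rich cells of their library. Macrophage-like cells had 8.00 (3.64–20.8), from 7 Msmb UMIs, and 5.09, and the latter was 2.50 (1.89–3.33) without the 1 rich cell. Fibroblast-like and endothelial-like cells had 3.21 and 2.36, and proximal luminal-like cells 5.24 and 4.31. The number of Defb50 UMIs per 1000 Sbp UMIs ordered the groups otherwise. It was 10.9 and 3.41 in ventral and proximal Sbp-rich cells, 2589 and 8313 in Msmb-rich cells, and 2.72 and 1031 in macrophage-like cells. The ventral macrophage value was 44.4 without cells over 5% Sbp and Spink1, and the proximal one was 172 without the 1 rich cell. Whether the UMIs outside the Msmb-rich cells came from free RNA, doublets or the cells themselves was not tested.

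**Figure D4:**
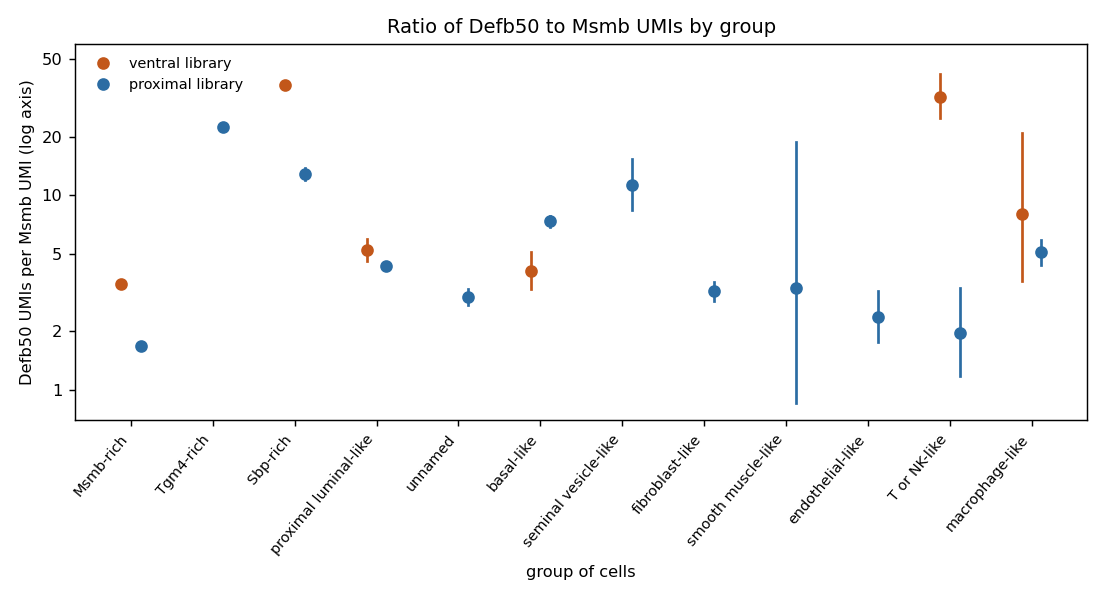
Defb50 UMIs per Msmb UMI (log axis) in each group of cells of the ventral (orange) and proximal (blue) libraries, with bars for the exact 95% interval. Msmb-rich cells sit at 3.50 and 1.68, and the highest ratios are those of ventral Sbp-rich cells at 36.9 and ventral T or NK-like cells at 32.0.

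Defb1 shared the Msmb-rich peak with Defb50. Its next level lay in Tgm4-rich cells of the proximal library, given below, and a lower one in basal-like cells. Ventral Msmb-rich cells gave 3194 CPM (3129–3260), with UMIs in 103 of 110 cells and 93.0% of the gene's ventral UMIs. Proximal Msmb-rich cells gave 6258 CPM (6211–6305), with UMIs in 160 of 161 cells and 82.5% of the UMIs. The median Msmb-rich cell held 0.308% and 0.637% of its UMIs as Defb1. Background in macrophage-like cells was 17.3 CPM from 3 UMIs in the ventral library and 49.8 CPM from 49 UMIs in the proximal library. Of the latter, 33 came from the same cell that was rich in Defb50, and the others gave 17.1 CPM (9.75–27.7).

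Basal-like cells, the layer beneath the luminal cells, gave 178 CPM of Defb1 in the ventral library (148–211), from 129 UMIs in 60 of 141 cells. That was 10.3-fold (3.43–50.4) the macrophage level. Proximal basal-like cells gave 225 CPM (217–234), 4.52-fold (3.41–6.13) the macrophage level. After thinning, 13.6% and 21.9% of basal-like cells had a Defb1 UMI, against 0% of 30 and 3.85% of 78 macrophage-like cells, where 0 of 30 has an exact upper bound of 11.6%. The unthinned shares were 42.6% and 71.7% at median depths of 4933 and 12080.5 UMIs, against 6.67% and 20.3% of macrophage-like cells. The 3 proximal basal-like clusters differed, with 295 CPM in cluster 7, 480 in cluster 8 and 41.0 in cluster 13, which was led by Grp, Ivl, Aqp3 and Ly6d. For Defb50 the same clusters gave 734, 1086 and 175 CPM, the same order as for Defb1.

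The ratio of the pair also differed between basal-like and Msmb-rich cells. There were 307 and 392 Defb1 UMIs per 1000 Defb50 UMIs in ventral and proximal basal-like cells, against 26.2 and 62.9 in Msmb-rich cells. Tgm4-rich cells had 151, with a Defb1 level of 790 CPM (775–805) and 12.4% of the gene's proximal UMIs. Their clusters 5, 16 and 17 gave 698, 1120 and 454 CPM, the last with 55.1% of its UMIs in 1 cell and 225 CPM without that cell. Sbp-rich cells had 4.79 and 14.9 per 1000, and their Defb1 levels, 11.9 and 17.4 CPM, did not exceed the macrophage level. Proximal luminal-like cells gave 34.3 CPM in the ventral library, with 75.6% of the UMIs in 1 cell and 8.46 CPM without it, and 26.6 CPM in the proximal library.

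**Figure D5:**
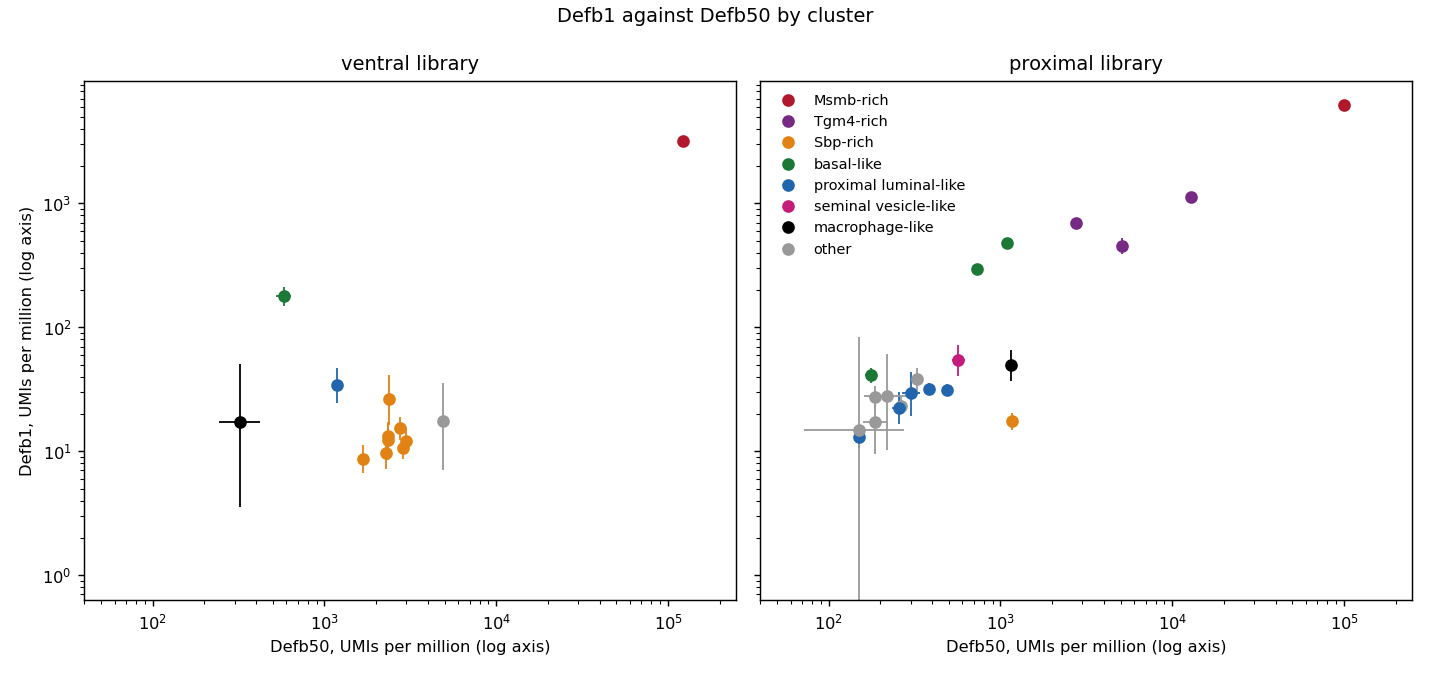
Defb1 against Defb50 in CPM (both log axes), with 1 point for each of 13 ventral and 21 proximal clusters, coloured by group, and bars for the exact 95% intervals. Msmb-rich clusters lie at the upper right, Sbp-rich clusters hold Defb50 with little Defb1, and basal-like clusters lie above them on the Defb1 axis.

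Within groups that were named alike in both libraries, the levels could be set side by side. In Msmb-rich cells the proximal to ventral ratio was 0.816 (0.813–0.820) for Defb50, 1.96 (1.92–2.0) for Defb1 and 1.78 (1.5–2.13) for Defb10. For Defb2 it was 0.459 (0.350–0.606). Over 5% of UMIs were Sbp and Spink1 in 63 of the 110 ventral and 8 of the 161 proximal Msmb-rich cells. Without these cells the 4 ratios were 0.612, 1.39, 1.36 and 0.354, in the same order of genes. In Sbp-rich cells Defb50 had a ratio of 0.474 and Defb1 one of 1.47. Over all distal luminal-like cells the ratios were 3.45 for Defb50, 11 for Defb1 and 6.54 for Defb10, and 2.23, 7.09 and 4.23 without Sbp and Spink1 in the totals, but different clusters held most of that class, Sbp-rich in the ventral and Tgm4-rich in the proximal library. In basal-like cells Defb50 had a ratio of 0.991 (0.898–1.10), an interval that includes 1, and Defb1 one of 1.27 (1.06–1.52). The class comprised 1 ventral and 3 proximal clusters. Without proximal cluster 13, the one lowest in both genes, the ratios were 1.38 (1.25–1.53) and 1.85 (1.55–2.23). Leaving out the lowest proximal cluster could only raise the ratios, so no difference between libraries is read from these values. Kit and region cannot be told apart in any of these ratios.

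Defb10 and Defb2 lie near Defb50, and Defb10 was nearly confined to Msmb-rich cells in the proximal library. There it gave 93.8 CPM (88.1–99.7), with 1030 of 1049 UMIs, 98.2%, in 138 of the 161 Msmb-rich cells. With 0 UMIs in macrophage-like cells, this was 30.8 times a floor of 3 counts in that group. In the ventral library Msmb-rich cells gave 52.5 CPM (44.5–61.6), 152 of 217 UMIs in 63 cells, 3.03 times the same floor in ventral macrophage-like cells. A further 63 UMIs lay among 55 Sbp-rich cells. Tgm4-rich cells gave 0.153 CPM of Defb10 from 2 UMIs.

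Defb2 was spread more widely. Ventral Msmb-rich cells gave 29.7 CPM (23.8–36.7) and Sbp-rich cells 6.76 CPM (6.01–7.58), and the latter held 292 of 389 UMIs. Proximal Msmb-rich cells gave 13.7 CPM (11.6–16.0). Proximal basal-like cells gave 12.9 CPM (11–15.1), 162 UMIs in 113 cells, with 18.2, 25.4 and 1.32 CPM in clusters 7, 8 and 13. Macrophage-like cells gave 4.06 CPM, all 4 UMIs in the 1 cell that was rich in Defb50. The Defb2 transcript shares a run longer than a read with that of Defb11 and a run shorter than a read with that of Defb10. The counts of these genes may therefore not be wholly separate.

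Defb11, Defb15 and Defb9, the further detected members of that interval, reached 10 UMIs in the proximal library alone. Of 28 Defb11 UMIs there 24 lay in Msmb-rich cells, and of 44 Defb15 UMIs 33 did. Of 13 Defb9 UMIs, 5 lay in Msmb-rich cells and 4 in the 1 macrophage-like cell named above. Defb13 had 1 ventral and 3 proximal UMIs, the latter all in Msmb-rich cells, and Defb35 had 0.

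Msmb-rich cells thus held several members at once. The median number of members with a UMI per cell was 3 in ventral and 4 in proximal Msmb-rich cells, up to 5 and 8. At least 2 members were found in 97.3% and 99.4% of them, and in 80.0% and 96.9% after thinning. The thinned share with at least 2 members was 0% and 2.56% in macrophage-like cells, 2.01% and 3.09% in Sbp-rich cells, 5.71% and 10.5% in basal-like cells and 33.2% in Tgm4-rich cells.

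By the interval rule, ventral distal luminal-like cells as a whole lay above macrophage-like cells for Defb50 and Defb1, beside 3.0% of all genes with at least 10 UMIs in both classes together. Proximal ones lay above for Defb50, Defb1, Defb10 and Defb42, beside 20.1% of genes. Ventral basal-like cells lay above for Defb50 and Defb1, beside 13.1% of genes, and for Defb1 alone of this pair against all immune cells pooled. Proximal basal-like cells lay above for Defb1 and Defb2, beside 21.8%. Of the members that could be compared, 5 of 6 and 12 of 14 in distal luminal-like cells and 1 of 2 and 2 of 4 in basal-like cells, had under 10 UMIs in macrophage-like cells and so met the minimum through the epithelial class, and nothing is read from how many lay above. Without the macrophage-like cell richest in each gene, Defb2 joined the members above the background in proximal distal luminal-like cells and Defb50 those in proximal basal-like cells.

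The chromosome 14 genes were found almost only in the proximal library, and Defb42 (chr14:63046991-63058149, plus strand) led them. Seminal vesicle-like cells, 26 in number with a median of 41445 UMIs, gave 316.5 CPM of Defb42 (282–354), with 301 UMIs in 20 cells and 29.9% of these in 1 cell. Tgm4-rich cells gave 24.2 CPM (21.6–27.0), 316 UMIs in 73 of 385 cells, and their clusters 5, 16 and 17 gave 19.4, 40.7 and 12.3 CPM. Both groups lay above macrophage-like cells, which had 1 UMI (1.02 CPM). Msmb-rich cells gave 1.64 CPM, so Defb42 did not share the cell distribution of Defb50, Defb1 and Defb10. With the highest doublet scores removed, Defb42 no longer lay above the background over distal luminal-like cells. The ventral library had 5 Defb42 UMIs, all in Sbp-rich cells, and no seminal vesicle-like cell.

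The neighbours of Defb42 were rare. Defb48 had 44 proximal UMIs, 19 in Msmb-rich and 18 in Tgm4-rich cells. Defb43 had 35, of which 13 lay in Msmb-rich, 12 in Tgm4-rich and 9 in proximal luminal-like cells. Defb47 had 13 UMIs in 13 cells. Defb30 (chr14:63034087-63049960, minus strand) had 29 UMIs in 27 cells over most groups, and it overlaps Defb42 on the opposite strand. Whether the counting used strand is not given in the sources used here, so the pair's counts are uncertain at that overlap.

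The chromosome 2 array gave few UMIs, most of them in Sbp-rich cells of the ventral library and in fibroblast-like and Sbp-rich cells of the proximal one. Defb28 (chr2:152518255-152521447, plus strand) gave 12.1 CPM (9.39–15.5) in proximal fibroblast-like cells, 3.99 times the floor of 3 counts in macrophage-like cells. The fibroblast-like UMIs numbered 66 in 27 cells, with 16 in 1 cell. Of these, 61 UMIs in 23 cells lay in cluster 15 and 5 in cluster 10. Sbp-rich cells gave 2.38 CPM in the ventral library, 103 of the gene's 105 UMIs there in 93 cells, and 2.18 CPM in the proximal library. Both intervals overlapped that of macrophage-like cells, which had 0 UMIs and are too few to set a lower limit. Defb29 lay in Sbp-rich cells as well, with 47 of 51 ventral and 12 of 14 proximal UMIs, at 1.09 and 1.19 CPM. Defb25 had 15 of 17 proximal UMIs in fibroblast-like cells. Of 29 proximal Defb19 UMIs, 23 came from 1 Sbp-rich cell, and Defb20 had 12 UMIs in 12 cells.

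In the largest array, that of 14 genes on chromosome 8, Defb14 was the 1 member to reach 10 UMIs. It had 34 proximal UMIs in 16 cells, 29 of them in proximal luminal-like cells, and 14 came from 1 cell. Defb14 is the mouse counterpart of a human skin and mucosal defensin that is induced in inflammation. The 13 members with 1 to 9 UMIs were Defb4, Defb6, Defb7, Defb13, Defb23, Defb26, Defb33, Defb34, Defb36, Defb37, Defb40, Defb41 and Defb45. The most of these in a library were 7 UMIs of Defb36 in the proximal one, 5 of them in fibroblast-like cells, and 6 of Defb37 in ventral Sbp-rich cells. The 11 members at 0 in both were Defb3, Defb5, Defb8, Defb12, Defb18, Defb21, Defb22, Defb35, Defb38, Defb39 and Defb46. A floor of 3 counts stands for 0.0617 CPM in the ventral and 0.0320 CPM in the proximal library, and the exact upper 95% bounds of 0 UMIs are 0.0759 and 0.0393 CPM.

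The genes whose levels followed the abundant members over clusters were picked as the 5 with the highest Pearson correlation, over 13 ventral or 21 proximal clusters that share a library and its depth. For Defb1 in the ventral library the first was Msmb at 0.935, and for Defb50 it was Atp6v1c2, a subunit of the vacuolar proton pump, at 0.951. In the proximal library Defb1 and Defb50 were each other's first, at 0.913. Pbsn, a secretory product of the lobes, was among the 5 of Defb1 at 0.860, and Msmb among those of Defb50 at 0.869. For Defb10 the first were the mucin gene Muc19 at 0.964, the transcription factor gene Sp5 at 0.955 and Msmb at 0.943. These are descriptions over few clusters, with no p-value.

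Other genes of host defence were counted by the same 4-fold rule from lists of related genes. Of 24 defensin-related genes, the alpha-defensins and Spag11a and Spag11b, 5 had any UMI (Defa20, Defa24, Defa29, Defa32 and Defa34) and 0 reached 10. Among 20 other antimicrobial genes 16 reached 10 UMIs. Of these 10 were over 4-fold higher in the proximal library, beside 39.3% of all genes tested, and 2, S100a9 and Pigr, over 4-fold lower, beside 0.982%. Because 4 of the 10 (Lyz1, Reg3b, Reg3g and Ptx3) met the minimum in the proximal library alone, nothing is read from that count. Wfdc2, a protease inhibitor of mucosal surfaces, gave 41.3 and 459 CPM, and Pigr, which carries antibodies across epithelia, 520 and 93.1 CPM. In proximal luminal-like cells Wfdc2 was higher in the ventral library, at 1564 against 863 CPM. In Msmb-rich, Sbp-rich, basal-like and macrophage-like cells Wfdc2 was higher in the proximal library. Pigr gave 537 and 480 CPM in Sbp-rich cells and 61.2 and 64.7 CPM in Msmb-rich cells. Pigr was lower in the proximal library in proximal luminal-like, basal-like and macrophage-like cells. The whole-library values thus compare no single cell type. Lcn2, which binds bacterial siderophores, gave 908 and 151 CPM in ventral and proximal basal-like cells, against 1.73 and 2.28 in Msmb-rich cells.

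The chemokine receptor genes Ccr6 and Ccr2 gave few UMIs. Ccr6 had 1 ventral and 16 proximal UMIs. Ccr2 gave 28.9 and 32.5 CPM in macrophage-like cells and 0 UMIs in Msmb-rich cells. Of 5 receptor genes, Ccr6 and Tlr4 were over 4-fold higher in the proximal library, and Ccr6 met the minimum of 10 UMIs there alone. Of 8 tested genes of sensing and induction, which all had at least 10 ventral UMIs, Nfkb1, Nfkbiz and Vdr were, beside the same 39.3%. Without Sbp and Spink1 in the totals 1 of the 8, Vdr, was over 4-fold higher, beside 28.0% of all genes, while the antimicrobial count was 9 without Lyz2 and the receptor count stayed at 2. The median log2 ratio of the 8, with 10 CPM added to both values, was 0.60 beside 0.16 over all genes tested.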

How the data were processed

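The deposited matrices hold raw counts of UMIs for each gene in each barcode. Cell Ranger 7.0.0 wrote them, per the file headers, on mm10, per the submitters' processing notes. The annotation used by the authors is not given in the sources used here. The ventral library held 2221 barcodes and 49356586 UMIs, the proximal library 4344 and 97817603. The members and lists were chosen with earlier results of these data known.

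Clustering used scanpy 1.11.5 and igraph 0.11.9 under Python 3.11.15, and intervals used scipy 1.17.1. Barcodes with fewer than 500 genes or over 10% mitochondrial UMIs were removed, as were 7 ventral and 4 proximal cells that Scrublet called. Each library was clustered alone (2000 variable genes without Defb genes, 30 principal components, 15 neighbours, Leiden resolution 1, seed 0). A cluster took the class whose markers lay highest above their lower quartile over clusters, with at least 3 markers in 25% of its cells. This scoring was set after scoring against all other clusters had left distal luminal clusters unnamed.

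Intervals at 95% were Poisson for CPM, Clopper-Pearson for shares and conditional on the total for ratios. A level was called above background when its interval lay wholly above that of the macrophage-like cells of its library, among genes with at least 10 UMIs in both groups together. Named genes were all members, plus the 5 genes of highest correlation (log2 of CPM plus 10, genes reaching 50 CPM in a cluster) for members with at least 1000 UMIs. The steps were tested on simulated data. Some results on named genes and motifs are not reported here.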

Additional observations from a re-analysis of the deposited data

Results flagged for a closer look

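For 3 groups of cells the level of Defb50 lay on opposite sides of the macrophage level in the libraries. The ratio to macrophage-like cells was 15.2 in ventral and 0.191 in proximal T or NK-like cells. In basal-like cells it was 1.79 and 0.50, and in proximal luminal-like cells 3.68 and 0.308. The difference was not tested. Without the 1 proximal macrophage-like cell with 949 Defb50 UMIs the proximal ratios were 1.14, 2.99 and 1.84, in the same order. Without cells over 5% Sbp and Spink1 the ventral T or NK-like ratio was 0.647.

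Members also had UMIs in the barcodes left out by the cell filters, 233 ventral and 639 proximal. These gave 79.9 CPM of Defb1 and 4208 CPM of Defb50 in the ventral library. In the proximal library they gave 204 CPM of Defb1, 1.01 of Defb2, 1.51 of Defb10, 5.55 of Defb42 and 2863 of Defb50. Each came from more than 3 UMIs, which would stand for 3.93 CPM in the ventral and 0.757 CPM in the proximal barcodes. The intervals of Defb2 (0.275–2.58) and Defb10 (0.555–3.29) include the latter value.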

How the results depend on the processing

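Of 738 alternative values over all results, 579 kept direction and call, or stayed within the interval or, for counts, within 1.5 times, 128 moved, 18 reversed, 5 gained a call and 8 lost one. Of 359 alternatives to 32 ratios of a group to macrophage-like cells, 329 kept direction and call, 8 lost the call, 5 gained it, 2 moved and 15 reversed. Requiring at least 10 UMIs left 6 ventral and 18 proximal members detected. The proximal to ventral ratio of Defb50 was 0.794 in CPM without Sbp and Spink1, 1.32 without the top cell of each library and 1.31 with no cell filter. Against all immune cells pooled, 1 member in place of 2 lay above background in ventral basal-like cells, and ventral Defb50 ratios fell under 1, to 0.698 in Sbp-rich, 0.163 in basal-like and 0.336 in proximal luminal-like cells. In that ventral pool 1982 of the 2038 Defb50 UMIs came from T or NK-like cells. Without cells over 5% Sbp and Spink1 the ventral T or NK-like ratio was 0.647. In the proximal library, with the highest doublet scores removed, Defb50 ratios rose above 1, to 2.68 in basal-like, 1.36 in proximal luminal-like, 1.13 in fibroblast-like and 2.61 in seminal vesicle-like cells. Without the richest macrophage-like cell, an alternative chosen after seeing the data, they were 2.99, 1.84, 1.27 and 2.96, and 1.14 in T or NK-like cells. Under the same 2 alternatives Defb1 in proximal luminal-like cells was at 1.02 and 1.56. Defb50 per Sbp in macrophage-like over Msmb-rich cells was 0.00105 in the ventral library, and 0.0172 without cells over 5% Sbp and Spink1, while per Msmb, a partner chosen after seeing the data, it was 2.29. In the proximal library these were 0.124 per Sbp and 3.02 per Msmb. Both include the richest macrophage-like cell, which held 949 of the 1129 Defb50 UMIs of its group. The cause was not tested. T or NK-like cells were not named in the proximal library at Leiden resolution 0.5 and have no value there. Depth limits what is said of members under 10 UMIs and of the 30 ventral macrophage-like cells. No paired analysis was possible because each group has 1 library, and no library could be left out.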
